A study of Mus musculus with 38 samples.

Results

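The genes described here are the collagens of mouse back skin, taken as every gene whose symbol is Col, a number, the letter a and a number and whose mean was 10 or more in the table at hand. Each of 4 tables listed 49585 genes, of which 44 carried such a symbol. The limit was passed by 42 of them in whole skin of the Srsf2 knockout set, 39 in whole skin of the Srsf2 P95H set, 35 in sorted knockout cells and 27 in sorted P95H cells after chemical carcinogenesis. In whole skin it was applied to values rescaled to steps, explained below with the depth; on the values as deposited 40 collagens passed it in P95H skin and 42 in knockout skin. Just outside the limit lay Col9a1 with a mean of 2.75 in knockout skin, Col6a4 with 9.5 in P95H skin, Col15a1 with 7.33 in sorted knockout cells and Col3a1 with 8.17 in sorted P95H cells. Just inside it lay Col9a2 with 10.8, Col2a1 with 12.7, Col22a1 with 10.0 and Col9a3 with 12.3 in the same tables.

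Collagens are extracellular matrix proteins whose chains wind into a rigid helix after their prolines and lysines have been hydroxylated, and which are then trimmed, assembled and crosslinked outside the cell. In skin, dermal fibroblasts make most of the fibrils of collagen I, III and V that give the dermis its strength. Basal keratinocytes sit on a basement membrane of collagen IV, to which the transmembrane collagen XVII and the anchoring fibrils of collagen VII attach them.

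The study compared mice that lost Srsf2, a splicing factor that binds exonic enhancers, or carried its P95H substitution, with controls, by RNA sequencing of back skin and of sorted cells. Whole skin of Srsf2 knockout mice (SRSF2-KO, Krt14CreER positive) was taken after 4, 10 and 12 days of topical 4-hydroxy tamoxifen, with 3 mice at each time, and set against 3 Cre negative mice with the SRSF2 KO allele that had received the drug for 12, 12 and 10 days. No control had been treated for 4 days, so at that time the genotype and the length of treatment cannot be told apart. Whole skin of SRSF2-P95H mice (Krt14CreER positive) came from 2 mice at 12 days and 4 at 28 days, and its Cre negative controls with the SRSF2 MUT allele numbered 5 and 3. Reporter positive cells were sorted from SRSF2-KO mice and controls at 10 days of the drug, and from heterozygous P95H mice and controls at 20 weeks of DMBA/TPA, a carcinogen followed by a tumour promoter, after tamoxifen injection, with 3 mice in each sorted group. Every group, controls included, received a tamoxifen. All mutant skins were Cre positive and all control skins Cre negative, so in whole skin mutation and Cre status cannot be told apart. The Krt14 promoter drives Cre in basal keratinocytes and not in dermal fibroblasts, and the Cre status of the sorted controls was not given. The tdTomato reporter was wild type in all mice of the P95H skin set, heterozygous in all knockout mice of 12 days, and mixed between homozygous, heterozygous and wild type in the other groups of the knockout skin set. Age and sex were not given, and the labels call the libraries biological replicates.

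Whole-skin levels are given in steps, the unit of which every deposited value of a library is a whole multiple; a gene without reads is listed at 1 step. Sorted cells are given as the normalised counts that were deposited. Depth was by estimate 25.0 to 36.8 M reads in knockout skin and 7.39 to 32.3 M reads in P95H skin, 45.9 to 92.8 M reads in sorted knockout cells and 10.98 to 17.2 M reads in sorted P95H cells. Srsf2 itself stood at 2450 to 2790 steps in knockout skin at 4 days, 2996 to 3687 at 10 days and 2303 to 2559 at 12 days, against 2879 to 2996 in control skin. In sorted cells it stood at 1900 to 3659 normalised counts in knockouts, against 17560 to 20595 in controls. A gene was called changed at a Benjamini-Hochberg adjusted p under 0.05 in limma, adjusted over all genes of the table tested. Bulk RNA cannot tell fewer cells of a type from less RNA per cell.

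The promoters of some collagens the results turn on are shown first, as pairs of genes that moved together. Col2a1 and Col1a1 are not among those shown. Windows of 250 bases before to 50 after the start were taken from RefSeq on build GRCm38.p6, where 35 of the 44 collagens matched with 38 windows. The collagen IV chain genes Col4a5 (chrX:141475169-141475468, plus strand) and Col4a6 (chrX:141474027-141474326, minus strand) lie head to head and were both lower in P95H skin at 28 days. Their gene bounds are 1308 bases apart in GENCODE M21, an annotation other than that of the windows. Col1a2 (chr6:4505368-4505667, plus strand), a chain of collagen I, and Col3a1 (chr1:45311288-45311587, plus strand), the only chain of collagen III, rose together in knockout skin at 4 days. Each window is printed 5′ to 3′ on the strand of its gene, and capitals mark 3 promoter motifs on either strand. These are CCAAT, bound by the factor NF-Y, then GGGCGG, bound by the factor Sp1, and finally TATAAA, bound by the TATA-binding protein.
Col4a5: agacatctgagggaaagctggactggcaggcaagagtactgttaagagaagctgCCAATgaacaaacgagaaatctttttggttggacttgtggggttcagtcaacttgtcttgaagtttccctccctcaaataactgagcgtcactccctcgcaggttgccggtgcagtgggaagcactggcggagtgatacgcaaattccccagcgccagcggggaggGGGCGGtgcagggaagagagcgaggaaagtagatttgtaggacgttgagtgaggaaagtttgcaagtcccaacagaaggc
Col4a6: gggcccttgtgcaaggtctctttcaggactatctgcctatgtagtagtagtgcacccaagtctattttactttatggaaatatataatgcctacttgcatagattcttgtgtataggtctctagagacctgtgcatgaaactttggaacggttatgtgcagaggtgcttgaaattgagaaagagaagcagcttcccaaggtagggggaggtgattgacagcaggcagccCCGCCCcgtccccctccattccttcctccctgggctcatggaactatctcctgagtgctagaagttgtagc
Col1a2: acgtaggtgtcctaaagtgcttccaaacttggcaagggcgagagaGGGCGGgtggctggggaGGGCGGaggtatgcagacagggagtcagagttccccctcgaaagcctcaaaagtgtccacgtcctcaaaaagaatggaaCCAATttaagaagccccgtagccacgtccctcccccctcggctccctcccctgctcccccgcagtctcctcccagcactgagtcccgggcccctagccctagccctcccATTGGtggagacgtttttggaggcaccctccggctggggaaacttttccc
Col3a1: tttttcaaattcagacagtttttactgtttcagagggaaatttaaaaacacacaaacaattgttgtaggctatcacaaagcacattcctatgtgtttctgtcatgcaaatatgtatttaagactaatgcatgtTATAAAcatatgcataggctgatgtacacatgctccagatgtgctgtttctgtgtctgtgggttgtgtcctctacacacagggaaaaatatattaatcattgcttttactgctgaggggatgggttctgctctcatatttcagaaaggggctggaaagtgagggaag
The facing windows of Col4a5 and Col4a6 each hold 1 match to GGGCGG and none to TATAAA, while Col3a1 holds 1 match to TATAAA and none to the other motifs; no matches overlap in the 4 windows. Searched on both strands, CCAAT was in 37.4% of all 32851 windows and in 13 of the 38 collagen windows (34.2%). GGGCGG was in 35.7% of all windows and 23 collagen windows (60.5%), and TATAAA in 13.6% of all windows and 5 collagen windows (13.2%). A match is a description of these letters, not a site.

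In knockout skin at 4 days, 16 of 42 collagens rose against control skin and none fell. An unadjusted p under 0.05 was found for 21 of 42 collagens, beside 5214 of 19450 genes. Over all 19450 genes tested, 7.21% were called higher and 4.12% lower. The median collagen difference was 0.19 on the log2 scale, beside -0.01 over all genes, and the calls lay in some classes: 7 of 11 fibril-forming collagens, 4 of 6 beaded-filament collagens, 2 of 6 chains of collagen IV, 2 of 8 fibril-associated collagens and 1 of 2 multiplexins. None of the 4 transmembrane collagens, the 2 short-chain collagens, the 2 unclassed ones or Col7a1 was called.

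Col1a1, which encodes the main chain of collagen I and lies at chr11:94936224-94953042 (GENCODE M21, GRCm38), had 799043, 579377 and 1221484 steps in the 4-day knockout skins, against 114827, 316033 and 246273 in control skins. All 3 knockouts lay above all 3 controls, as in 19 of 42 collagens and 16% of all genes, a 3.98-fold difference (log2 1.99, SE 0.46, adjusted p = 0.0212). Its partner Col1a2 had 610835, 439947 and 931342 steps in knockouts, against 96496, 231550 and 205012 in controls (3.79-fold, adjusted p = 0.0151). Col3a1, whose fibrils are abundant in stretchable and healing tissue, had 677444, 424069 and 886068 steps in knockouts and 110718, 225721 and 197642 in controls (3.72-fold, SE 0.36 log2, adjusted p = 0.0110). The 3 genes share an order among the libraries, with knockout replicate 3 highest and control replicate 1 lowest.

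The chains of collagen V, which sets the diameter of collagen I fibrils, also rose: Col5a1 2.95-fold, Col5a2 2.84-fold and Col5a3 2.14-fold, with adjusted p of 0.00791, 0.0101 and 0.00824. Col5a1 had 39477, 32559 and 55836 steps in knockouts, against 9720, 16808 and 17052 in controls. Col2a1, the fibrillar collagen of cartilage, was rare yet rose 2.62-fold, with 28, 26 and 33 steps in knockouts and 8, 10 and 14 in controls (adjusted p = 0.0124). Col11a1, Col11a2, Col24a1 and Col27a1 made up the remaining fibrillar genes, with log2 differences between -0.42 and 0.03, none of them called.

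Among the beaded-filament collagens, which link cells to the surrounding matrix as collagen VI, Col6a6 showed the largest difference of all collagens at 4 days. It had 832, 1051 and 650 steps in knockouts, against 157, 328 and 143 in controls, 4.24-fold higher (log2 2.08, SE 0.34, adjusted p = 0.00742). The core chains Col6a1, Col6a2 and Col6a3 rose 2.01-fold, 2.08-fold and 2.62-fold (adjusted p = 0.0191, 0.0173 and 0.0188). Col6a5, at 212, 275 and 326 steps in knockouts and 149, 196 and 155 in controls, did not pass the test (adjusted p = 0.0936), and neither did Col6a4.

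The head-to-head pair Col4a3 and Col4a4, chains of the collagen IV network best known from kidney and lung, rose together. Col4a3 had 1888, 1019 and 2361 steps in knockouts, against 269, 709 and 521 in controls (3.57-fold, SE 0.37 log2, adjusted p = 0.0129), and Col4a4 was 2.37-fold higher (adjusted p = 0.0335). The ubiquitous basement membrane chain Col4a1 had 29664, 33707 and 35509 steps in knockouts and 15937, 25803 and 25381 in controls, which did not overlap but missed the threshold (log2 0.59, adjusted p = 0.1003). The collagens of keratinocyte attachment were not called: Col17a1 had a log2 difference of -0.45 (SE 0.25, adjusted p = 0.275) and Col7a1 one of -0.27 (SE 0.29, adjusted p = 0.594). The fibril-associated Col14a1 and Col16a1, which decorate the surface of fibrils, rose 2.58-fold and 1.78-fold, and the multiplexin Col15a1, found at basement membranes of vessels and muscle, rose 2.11-fold (adjusted p = 0.0202, 0.0112 and 0.0167).

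**Figure D1:**
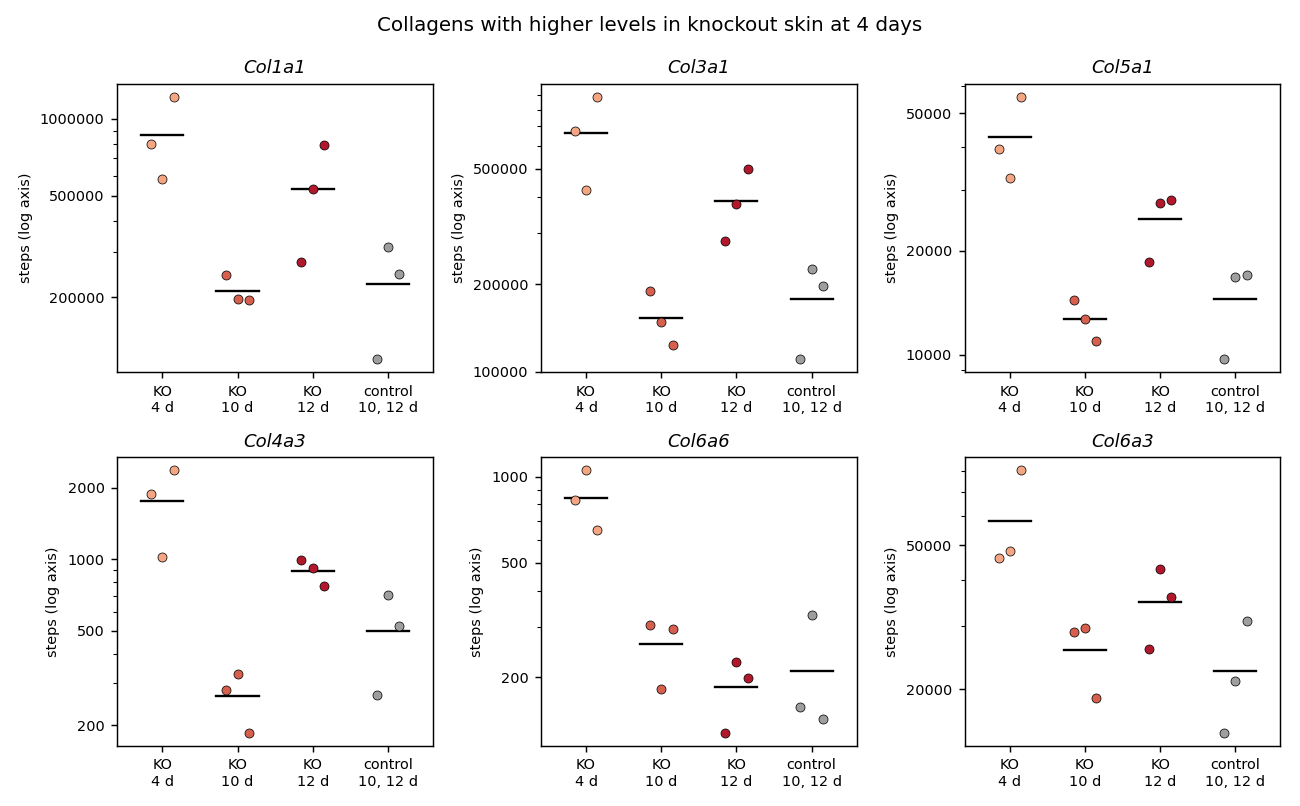
Steps per library (log axes) of Col1a1, Col3a1, Col5a1, Col4a3, Col6a6 and Col6a3 in knockout skin at 4, 10 and 12 days and in control skin; each point is 1 mouse and the bar is the arithmetic mean of 3. The 4-day knockouts lie above all controls in every panel, and Col1a1 at 10 days, 195626 to 245415 steps, lies within the control range.

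Collagens took up 6.10 to 10.8% of all steps in the 4-day knockouts and 1.69 to 3.44% in the controls. Per kilobase of exon, Col1a1 made up 43.6% of the collagen level in the 4-day knockouts and 34.5% in the controls, ahead of Col3a1 with 22.4% and 18.7%. The machinery of collagen making moved the same way: 11 of 25 genes of collagen synthesis and folding rose and none fell, among them the prolyl hydroxylase subunit P4ha2 (2.16-fold, adjusted p = 0.00671), the lysyl hydroxylase Plod1 (2.40-fold) and the collagen galactosyltransferase Colgalt1 (1.55-fold). Of 15 trimming and crosslinking genes 9 rose, including the lysyl oxidases Loxl1 (2.65-fold) and Loxl2 (2.38-fold) and the collagen-binding Sparc (3.66-fold). Of 29 fibril-associated matrix genes 13 rose, among them Fn1 (2.68-fold), Fbn1 (2.80-fold) and Tnxb (2.12-fold). These lists have background rates of 7.21% higher and 4.12% lower, as the collagens do.

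Macrophage markers rose with the collagens, 15 of 15, with a summed level of 108224 to 198700 steps in the 4-day knockouts and 41437 to 63699 in controls. Fibroblast markers summed to 232635 to 393732 steps in these knockouts, against 110922 to 180931 in controls, with 10 of 23 higher and 1 lower. Dlk1 of the fibroblast list and a second Itgam entry of the macrophage list averaged under 10 steps, and the part of these cells in the collagen result was not tested. The count of 16 fell to 3 without 4-day knockout replicate 3 and to 5 without control replicate 1, to 5 when only these 6 libraries were fitted, to 11 on the values as deposited, and to 0 with no filter on low values. Only Col6a6 and Col5a1 of the 8 largest rises kept their call whichever of the 6 libraries was left out, with adjusted p no higher than 0.0349 and 0.0431.

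In knockout skin at 10 days, 5 collagens rose and 3 fell against the same controls, at a background of 13.3% of all genes higher and 11.9% lower, so that collagens were not called more often than genes at large. Col11a1, a minor fibrillar chain that nucleates thin fibrils (chr3:114030540-114220718, GRCm38), stood apart with 3751, 4062 and 3815 steps in knockouts, against 266, 249 and 508 in controls. That is a 12.0-fold difference (log2 3.58, SE 0.70, adjusted p = 0.00762), and every knockout lay above every control.

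Col2a1 had 67, 103 and 60 steps at 10 days in knockouts, against 8, 10 and 14 in controls (6.62-fold, SE 0.28 log2, adjusted p = 0.00105). Col6a4, a collagen VI chain, had 98, 95 and 66 steps in knockouts and 18, 16 and 29 in controls (4.04-fold, adjusted p = 0.00742). Col12a1, a fibril-associated collagen of tendon sheath and loaded connective tissue (chr9:79598991-79718831, GRCm38), had 9897, 8382 and 9755 steps in knockouts and 3980, 2604 and 4989 in controls (2.501-fold, adjusted p = 0.0123). In each of these 3 and in Col11a1 the knockouts lay above all controls, as they did in 7 of 42 collagens and 22% of all genes. The rare collagen IX chain Col9a2 rose to 13, 19 and 17 steps in knockouts, against 8, 6 and 9 in controls (SE 0.26 log2, adjusted p = 0.02004). It passed the limit of 10 only through knockouts of 10 and 12 days, which averaged 16.3 and 12.7 steps. Controls averaged 7.67 and 4-day knockouts 6.67, so the limit favoured a rise at 10 days against either.

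Of the 3 that fell, Col4a6 had 1047, 654 and 1028 steps in knockouts, against 2428, 1867 and 1508 in controls, 2.13-fold lower (log2 -1.09, SE 0.23, adjusted p = 0.00947). The transmembrane Col13a1 had a log2 difference of -0.63 (adjusted p = 0.0335) and Col5a3 one of -0.58 (adjusted p = 0.0435). The abundant collagens were not called at this time: the log2 difference was 0.03 for Col1a1, -0.17 for Col3a1, 0.22 for Col4a1, -0.54 for Col7a1 and -0.61 for Col17a1, with adjusted p from 0.0902 for Col17a1 to 0.970 for Col1a1. Without control replicate 2, 4 collagens were called, and Col12a1 was no longer among them (adjusted p = 0.0552); without 10-day replicate 2 or 3, 5 were called. Col9a2, Col13a1 and Col5a3 each lost their call in at least 3 of 6 such fits. With all libraries brought to the same total the split was 4 higher and 11 lower, and on the deposited values 6 higher and 1 lower, scalings that moved the median gene by -0.34 and 0.25 log2.

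Hair shaft and inner root sheath markers were higher at 10 days along with Col11a1 and Col12a1. In controls, hair marker sums of 263802, 12313 and 178504 steps stood beside 266, 249 and 508 steps of Col11a1. The 4-day knockouts had sums of 6592, 37352 and 13520 beside 114, 929 and 334 steps. Those of 12 days had sums of 4615, 48565 and 23927 beside 93, 448 and 332 steps. Of 29 such markers 26 rose at 10 days, to a summed 4870480 to 6451601 steps in knockouts, against 12313 to 263802 in controls, and 7 of 16 dermal papilla and sheath markers rose with them. Endothelial markers were lower in 12 of 15 cases and summed to 11170 to 12689 steps in knockouts and 18217 to 23674 in controls; skeletal muscle markers were lower in 13 of 15. Beside these marker counts, 13.3% of all genes were called higher and 11.9% lower at 10 days. The part of these cells in the collagen differences was not tested. Within the 12 libraries, Col11a1 and Col12a1 correlated at r = 0.95 on the log2 scale, a description over libraries that share the 3 days and controls. The 10-day knockouts lay above all other libraries of the set in both genes. In the 14 P95H skins r was 0.10, and the cause of this difference was not tested. Other matrix genes also differed at 10 days: the lysyl hydroxylase Plod2 (3.18-fold higher), the procollagen N-proteinase Adamts3 (4.69-fold higher) and its relative Adamts14 (2.47-fold lower), the prolyl 3-hydroxylase P3h2 (2.13-fold lower), and tenascin C, Tnc (5.57-fold higher).

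**Figure D2:**
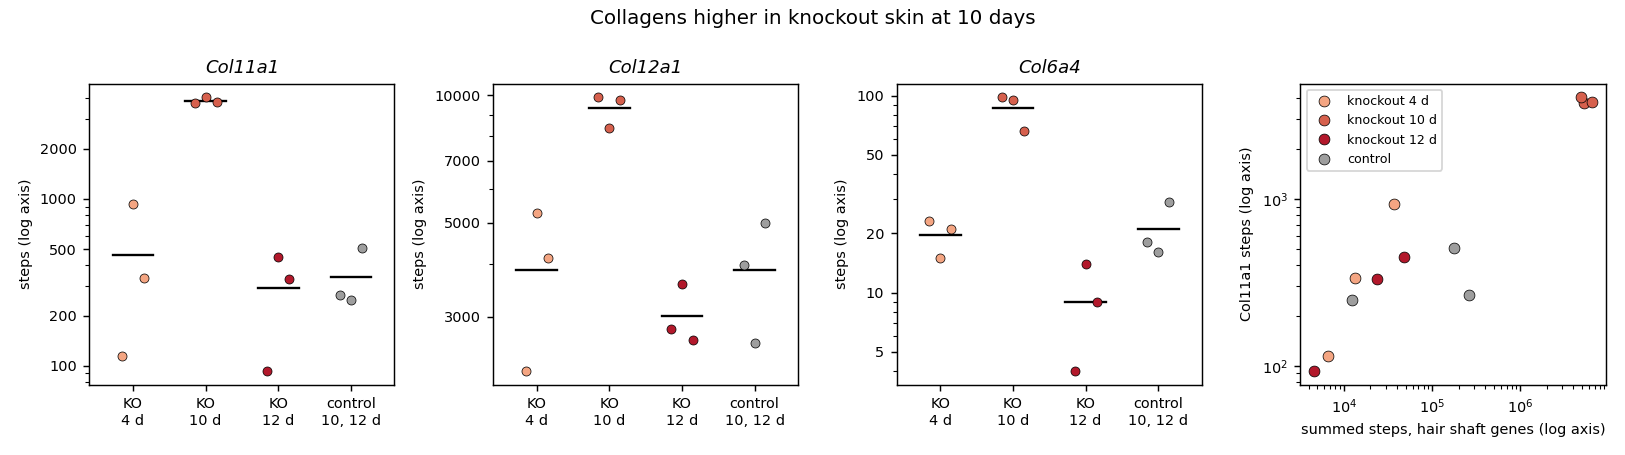
Steps per library of Col11a1, Col12a1 and Col6a4 in knockout skin at 4, 10 and 12 days and in control skin (log axes, 1 point a mouse, bar the mean of 3), and Col11a1 plotted against the summed hair marker genes of the same library. The 3 knockouts of 10 days, 3751 to 4062 steps of Col11a1, lie apart from all other libraries, 93 to 929 steps, on both axes.

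Against control skin, only Col2a1 and Col6a5 were called at 12 days, both higher, at a background of 0.823% of all genes higher and 0.458% lower. An unadjusted p under 0.05 was found for 17 of 42 collagens, beside 3840 of 19450 genes. Col6a5, a collagen VI chain (chr9:105856078-105960643, GRCm38), had 609, 544 and 922 steps in knockouts, against 149, 196 and 155 in controls (4.05-fold, SE 0.24 log2, adjusted p = 0.00421). Col2a1 had 35, 52 and 52 steps in knockouts, against 8, 10 and 14 in controls (4.08-fold, SE 0.28 log2, adjusted p = 0.00692). Both were above every control, as were 11.8% of all genes, and both kept their call in each of 6 fits without 1 library and under every other alternative tried. Col1a1 ranged widely, with 274723, 529222 and 788018 steps in knockouts, and its log2 difference of 1.23 against control was not called (adjusted p = 0.177), nor were those of Col3a1 (1.14, adjusted p = 0.124), Col4a1 (-0.32, adjusted p = 0.440), Col7a1 (-0.17, adjusted p = 0.787) and Col17a1 (-0.16, adjusted p = 0.762). Col4a6, at 1070, 1017 and 1049 steps in knockouts, lay below every control but was not called (log2 -0.86, adjusted p = 0.0825). Macrophage markers summed to 83342 to 103813 steps in these knockouts, against 41437 to 63699 in controls, with 0 of 15 called.

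**Figure D3:**
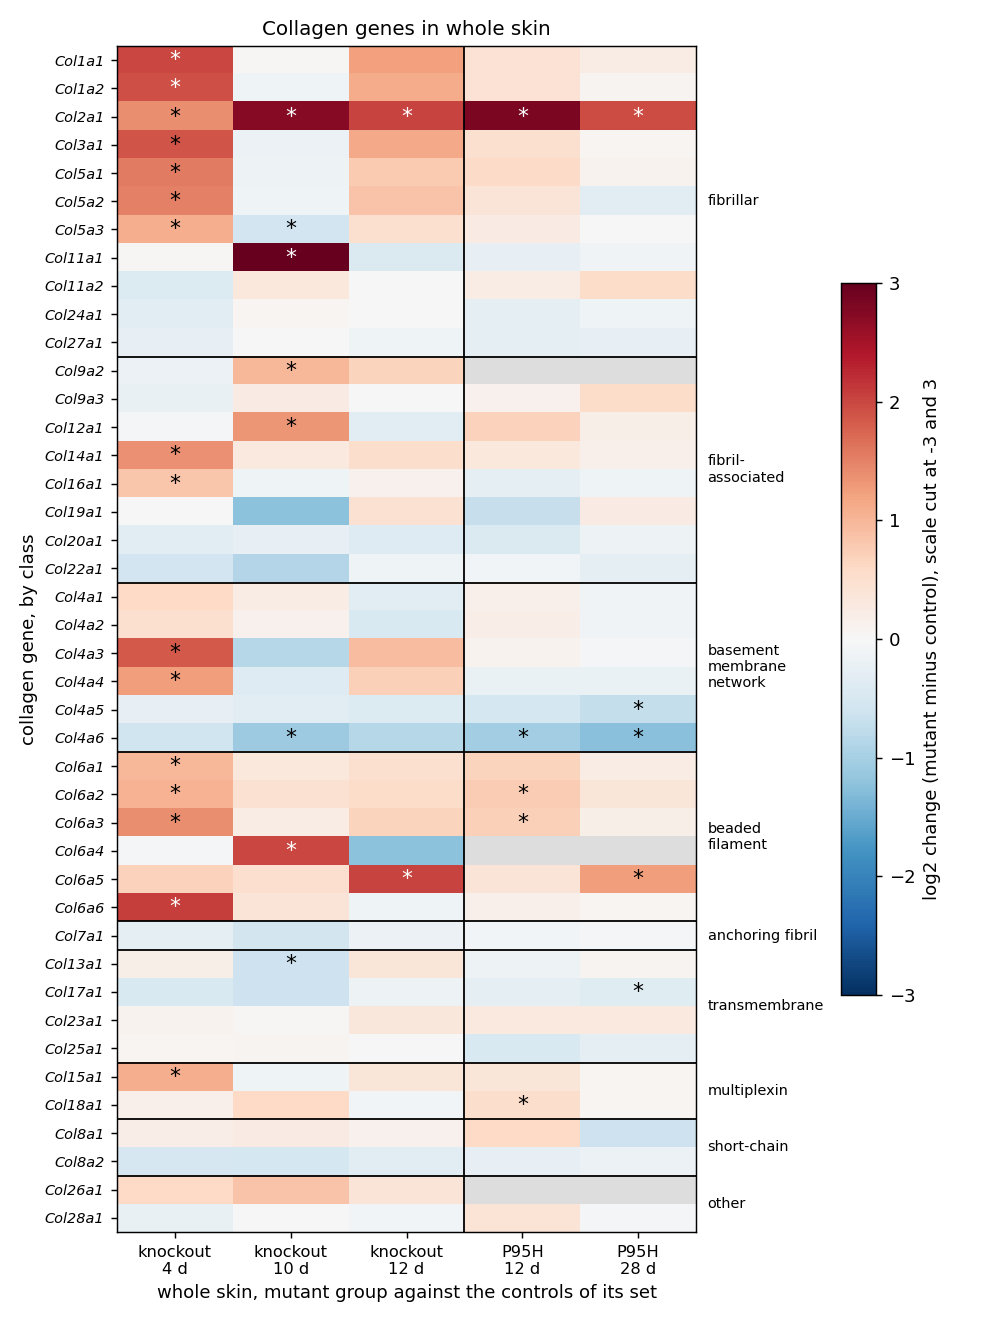
Log2 differences from control of every tested collagen (1 cell a gene, ordered by class) in knockout skin at 4, 10 and 12 days and P95H skin at 12 and 28 days; colour runs from -3 to 3, an asterisk marks an adjusted p under 0.05 and grey a gene not tested. Of the 16 asterisks at 4 days, all higher, 7 lie among fibrillar and 4 among beaded-filament collagens, and Col2a1 carries an asterisk in all 5 columns.

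Between 10 and 4 days of knockout, 6 collagens were higher and 16 lower at 10 days, at a background of 40.3% of all genes called, 18.9% higher and 21.4% lower. Col11a1 rose most, with 3751, 4062 and 3815 steps at 10 days, against 114, 929 and 334 at 4 days (log2 3.56, SE 0.70, adjusted p = 0.00209). The other rises were Col6a4 (log2 2.08, adjusted p = 0.00156), Col12a1 (log2 1.35, adjusted p = 0.00419), Col2a1 (log2 1.34, adjusted p = 0.00286), Col9a2 (log2 1.18, adjusted p = 0.00413) and Col11a2 (log2 0.74, adjusted p = 0.0112). Of 29 hair markers tested, 28 were higher at 10 days, and their part in these values was not tested. Col4a3, with 280, 328 and 186 steps at 10 days, against 1888, 1019 and 2361 at 4 days, fell most (log2 -2.68, SE 0.37, adjusted p = 0.000307), followed by Col3a1 (log2 -2.07, adjusted p = 0.00112), Col1a2 (log2 -2.06, adjusted p = 0.00219) and Col1a1 (log2 -1.97, adjusted p = 0.00593). Each of these 4 falls and 6 rises kept its call whichever library was left out. Macrophage markers were lower in 15 of 15 and fibroblast markers in 15 of 23 in the same comparison, and their part was not tested. The split was 5 higher and 20 lower with equal totals and 7 and 10 on the deposited values. This comparison and that of 12 with 10 days share the 10-day libraries.

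Between 12 and 10 days of knockout, 10 collagens were higher and 5 lower at 12 days, at a background of 19.2% and 18.3%. Col11a1 had 93, 448 and 332 steps at 12 days (log2 -4.01, SE 0.70, adjusted p = 0.00173), Col6a4 had 4, 14 and 9 (log2 -3.24, adjusted p = 0.000342) and Col12a1 had 2807, 3591 and 2637 (log2 -1.64, adjusted p = 0.00211). Higher at 12 days were Col4a3 (log2 1.78, adjusted p = 0.00419), Col19a1 (log2 1.68, adjusted p = 0.0101), Col6a5 (log2 1.51, adjusted p = 0.00115), Col3a1 (log2 1.31, adjusted p = 0.0158), Col1a2 (log2 1.25, adjusted p = 0.0317), Col4a4, Col5a3 and Col5a2, and lower were also Col18a1 (log2 -0.68) and Col4a2 (log2 -0.59). Hair markers were lower at 12 days in 29 of 29 cases and macrophage markers higher in 13 of 15, and their part was not tested. The count of 15 became 8 without 10-day replicate 3 and 9 without 12-day replicate 3; in both cases Col1a2, Col3a1, Col4a2, Col4a4 and Col5a2 were among those that missed the threshold. It split as 16 higher and 3 lower with equal totals, and as 6 and 6 on the deposited values.

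In P95H skin at 12 days, 4 of 39 collagens rose and 1 fell against controls of the same time, at a background of 6.93% of all genes called, 3.96% higher and 2.97% lower. Col2a1 had 30 and 31 steps in the P95H skins, against 3, 5, 2, 3 and 5 in controls (7.09-fold, SE 0.35 log2, adjusted p = 0.000400). Col4a6 had 387 and 371 steps in P95H skins, against 825, 757, 880, 773 and 669 in controls, 2.05-fold lower (log2 -1.04, SE 0.15, adjusted p = 0.000977). In both genes the groups did not overlap; over all genes P95H skins lay wholly above controls in 13.7% and wholly below in 14%. The collagen VI chains Col6a2 and Col6a3 rose 1.69-fold and 1.64-fold (adjusted p = 0.0478 and 0.0370), and Col18a1, a basement membrane multiplexin that is the source of endostatin, rose 1.45-fold (adjusted p = 0.0241).

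The other abundant collagens had log2 differences of 0.44 for Col1a1, 0.48 for Col3a1, 0.14 for Col4a1, -0.08 for Col7a1 and -0.29 for Col17a1 at 12 days, with adjusted p from 0.118 for Col17a1 to 0.826 for Col7a1. Only Col2a1 and Col4a6 were called in each of 7 fits without 1 library. Without P95H replicate 2 they were the only 2 called, and without control replicate 1 or control replicate 3 the count was 3. The deposited values gave 1 call, which was higher. Macrophage markers were higher in 3 of 15 cases and fibroblast markers in 4 of 23, with summed levels of 22694 to 29938 and 66494 to 78806 steps in P95H skins, against 15776 to 23758 and 49106 to 66173 in controls. Their part in the collagen VI differences was not tested.

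In P95H skin at 28 days 2 of 39 collagens rose (5.13%) and 3 fell (7.69%), close to the background of 6.7% higher and 5.46% lower. Col2a1 had 22, 29, 16 and 18 steps in P95H skins, against 4, 6 and 4 in controls (3.88-fold, SE 0.31 log2, adjusted p = 0.00187). Col6a5 had 308, 232, 164 and 201 steps in P95H skins and 91, 79 and 106 in controls (2.40-fold, SE 0.25 log2, adjusted p = 0.00591). In both, the lowest P95H skin lay above the highest control, as in 14.5% of all genes.

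The X-linked pair was lower. Col4a6 had 289, 357, 436 and 396 steps in P95H skins, against 887, 752 and 1002 in controls, 2.39-fold lower (log2 -1.26, SE 0.13, adjusted p = 0.000108). Col4a5, whose chain pairs with that of Col4a6 in the epidermal basement membrane, had 402, 603, 646 and 624 steps in P95H skins and 823, 937 and 1010 in controls, 1.64-fold lower (log2 -0.72, adjusted p = 0.00544). Col17a1, the hemidesmosomal collagen of basal keratinocytes (chr19:47646344-47692094, GRCm38), had 16719, 17735, 19079 and 17044 steps in P95H skins, against 23400, 21389 and 22761 in controls, 1.28-fold lower (log2 -0.35, SE 0.10, adjusted p = 0.0283). The P95H skins lay below all controls in each of the 3 genes, as in 14.1% of all genes. All but Col17a1 kept their call without any 1 library; Col17a1 kept it in 2 of 7 such fits, and without control replicate 4 its adjusted p was 0.107.

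On the values as deposited, whose further scaling moved the median gene of this comparison by 0.59 log2, only Col2a1 and Col6a5 were called. The log2 differences of the 3 lower genes were below that shift but not called, at -0.64 for Col4a6 (adjusted p = 0.333), -0.10 for Col4a5 (adjusted p = 0.851) and 0.26 for Col17a1 (adjusted p = 0.635). At 12 days the deposited Col4a6 difference was -1.14 (adjusted p = 0.678). The ratio of Col4a6 to Col4a5 within a library does not depend on such scaling. It was 0.592 to 0.719 in P95H skin and 0.803 to 1.08 in controls at 28 days, 0.643 to 0.675 and 0.854 to 1.03 at 12 days, and 0.583 to 0.737 in knockout skin at 10 days, against 0.944 to 1.28 in its controls. In none of these 3 comparisons did the ratios overlap, whereas those of knockout skin at 4 days, 0.704 to 1.07, and at 12 days, 0.672 to 1.05, reached into the control range. Col4a6 was already called lower in these 3 comparisons, and Col4a5 was chosen after its values were seen. The ratios are therefore a description and not a separate test. Basal keratinocyte and hair follicle stem cell markers summed to 152498 to 191392 steps in P95H skins of 28 days, against 135928 to 138667 in controls, and their part was not tested.

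Col1a1 (log2 0.22, adjusted p = 0.591), Col3a1 (0.07, adjusted p = 0.862), Col4a1 (-0.10, adjusted p = 0.585) and Col7a1 (-0.03, adjusted p = 0.909) were not called at 28 days. The difference between the P95H effects at 28 and 12 days was itself tested, and no collagen passed in limma, at a background of 0.0109% of all genes; 5 of 39, beside 1504 of 18311 genes, had an unadjusted p under 0.05, with log2 differences of effects from -1.23 for Col8a1 to 0.94 for Col19a1 and 0.88 for Col6a5. Between the controls of 28 and 12 days no collagen was called by limma either, at a background of 0.00546%, and 3 of 39, beside 2144 of 18311 genes, had an unadjusted p under 0.05. Among the collagen-related genes, Adamts14 fell 2.67-fold at 12 days and 1.74-fold at 28 days, Plod2 and Tnc rose 2.06-fold and 3.97-fold at 28 days, and the laminin chain gene Lama3 fell 1.38-fold at 28 days.

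**Figure D4:**
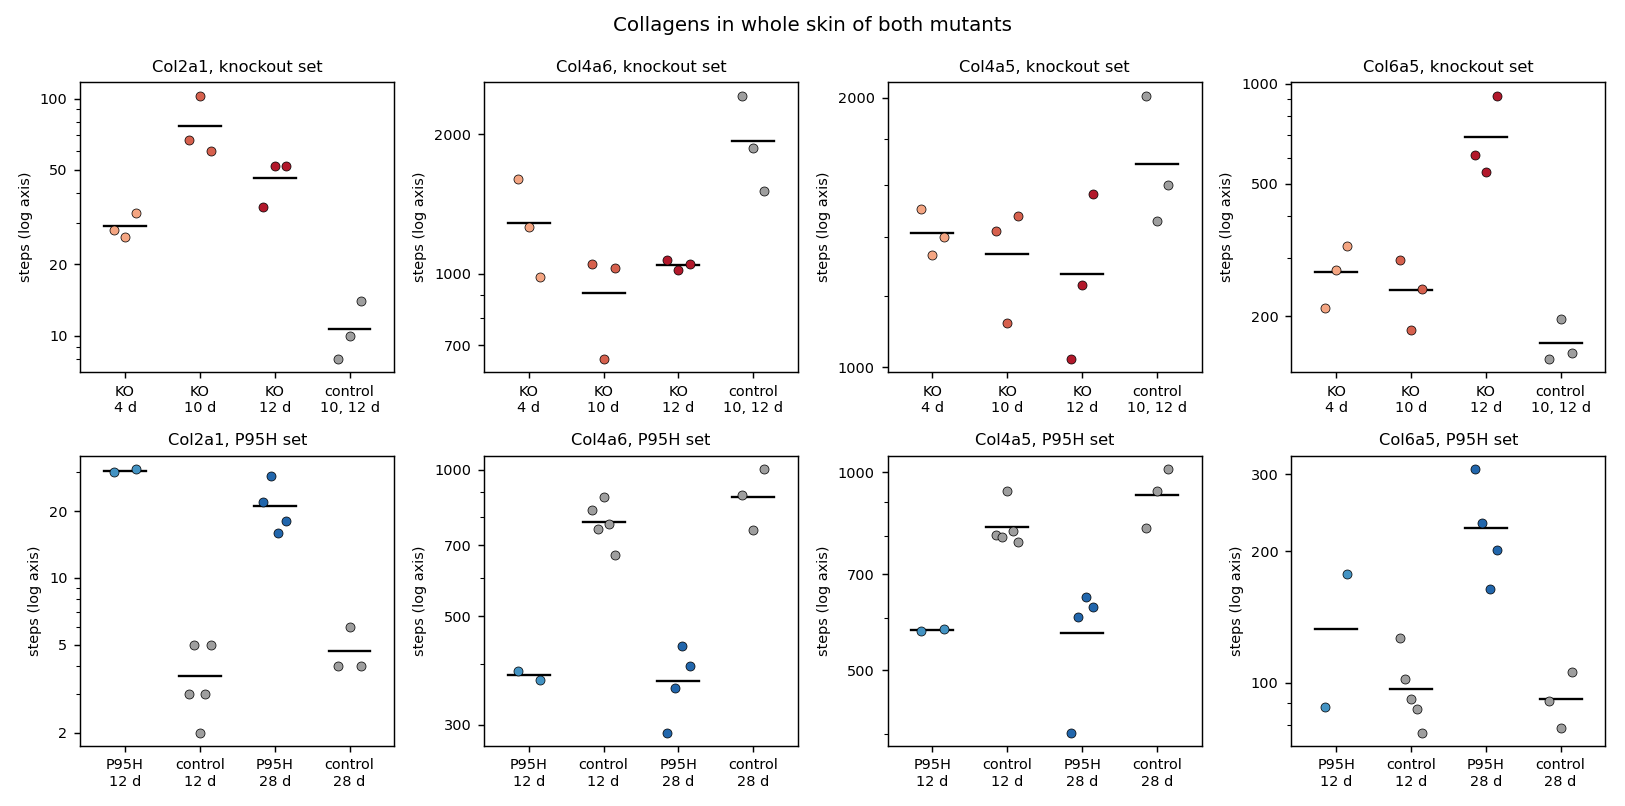
Steps per library (log axes) of Col2a1, Col4a6, Col4a5 and Col6a5 in the knockout skin set (top) and the P95H skin set (bottom), 1 point a mouse, bar the arithmetic mean of the group. Col2a1 lies above control in all 5 mutant groups and Col4a6 lies below it in knockouts of 10 and 12 days and in both P95H groups, though not called at 12 days of knockout.

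Only Col2a1 among the collagens was called in all 5 comparisons of mutant with control skin. The 3 knockout comparisons share their controls and are not independent of each other, but the P95H set has other mice, another library kit and its own controls. In both sets the mutants were Krt14CreER positive and the controls Cre negative, so mutation and Cre status cannot be told apart. In the P95H set Col2a1 passed the limit of 10 only through the mutants, which averaged 30.5 steps at 12 days and 21.25 at 28 days. Its controls averaged 3.6 and 4.67 steps. The limit thus favoured a gene that was higher in P95H skin. Col2a1 levels in mutants were 26 to 103 steps in the knockout set, against 8 to 14 in controls, and 16 to 31 steps in the P95H set, against 2 to 6 in controls. Of 8 chondrocyte markers in the tables, Epyc, Hapln1, Matn1 and Matn3 had means under 10 steps in all 4 groups of knockout skin, and the other 4 were Acan, Comp, Sox5 and Sox6. At 10 days of knockout 2 of the 4 tested markers rose, Acan 32.4-fold (SE 1.38 log2, adjusted p = 0.0245) and Sox5 1.91-fold (adjusted p = 0.0159), and Sox6 fell 3.82-fold (adjusted p = 0.00701); at 4 and 12 days none was called. Over all genes, 13.3% were called higher and 11.9% lower at 10 days of knockout. In P95H skin Sox6 fell 1.88-fold at 12 days and 1.45-fold at 28 days (adjusted p = 0.00108 and 0.0124), and the other 3 tested markers were not called. The 8 markers summed to 1658 to 2256 steps at 4 days of knockout, 2661 to 3102 at 10 days and 1777 to 2196 at 12 days, against 1852 to 3098 in controls. In P95H skin they summed to 1082 to 1290 steps, against 1850 to 2282 in controls, at 12 days, and to 1433 to 1771, against 1947 to 2493 in controls, at 28 days. Their part in the Col2a1 result was not tested. Col2a1 (chr15:97975602-98004695, GRCm38) overlaps no other annotated gene. Many other collagens named here do, so that their counts may hold reads of another gene. Among them are Col1a2, Col3a1, Col4a1, Col4a2, Col4a3, Col4a5, Col4a6, Col5a1, Col5a2, Col5a3, Col6a3, Col6a4, Col6a6, Col7a1, Col12a1, Col13a1, Col14a1, Col15a1, Col18a1, Col19a1, Col22a1 and Col27a1.

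In sorted reporter positive cells Col17a1 led the collagens. It made up 81.6% of the collagen level per kilobase in sorted controls of the knockout set and 81.8% in those of the P95H set, against 7.82% in control skin of the knockout set. Col1a1 and Col3a1, at 21.4 to 61.3 and 10.3 to 20.3 normalised counts in the sorted controls, were rare there. Col2a1 averaged 3.69 ± 1.09 CPM (counts scaled to the library total) in sorted control cells of the knockout set (SD, n = 3). Control skin of that set had 0.367 ± 0.114 CPM (n = 3), so the sorted level was 10.0 times as high. Sorted controls of the P95H set had 0.313 ± 0.122 CPM (n = 3), no higher than this skin. The tables were normalised separately and no test was made between them.

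**Figure D5:**
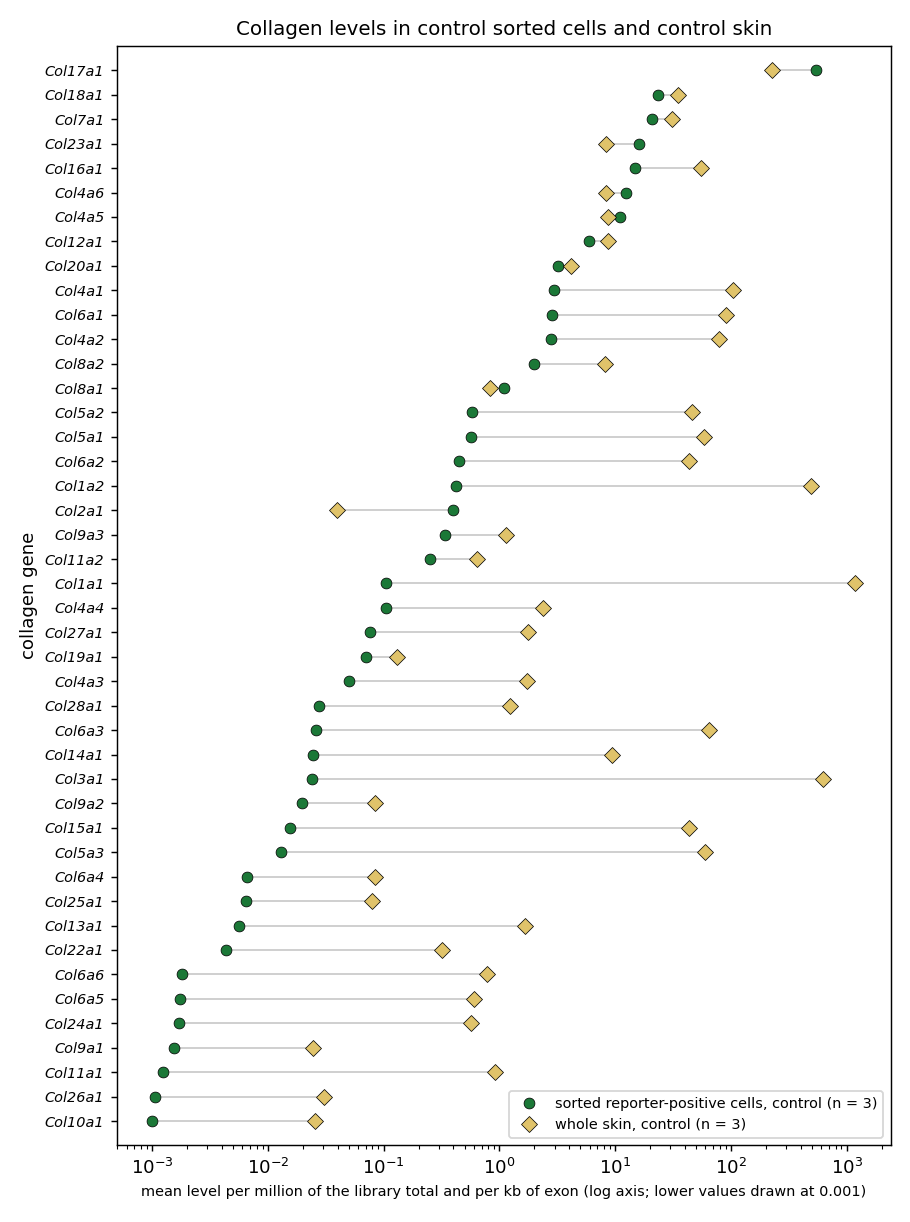
Mean level of each collagen, scaled to the library total and per kilobase of exon (horizontal log axis; lower values drawn at 0.001), in sorted control cells of the knockout set (circles) and control skin of the knockout set (diamonds), 1 line a gene, n = 3 mice each; skin genes without reads sit at 1 step. Of 6 collagens with a higher mean in sorted cells, Col2a1, Col17a1 and Col23a1, at 10.0, 2.43 and 1.93 times the skin level, had ranges that did not overlap and Col4a6, Col8a1 and Col4a5, at 1.49, 1.304 and 1.29 times, had ranges that did, while the circles of Col1a1 and Col3a1 lie far left of their diamonds.

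No collagen was called between sorted knockout and control cells by limma, edgeR or DESeq2, at a background of 0.0394% of all genes in limma, 0.0282% higher and 0.0113% lower; 1 of 35, Col22a1, beside 3051 of 17744 genes, had an unadjusted p under 0.05, at 17.8, 27.4 and 7.23 normalised counts in knockouts, against 0.756, 2.70 and 4.28 in controls (log2 2.33, SE 0.81, adjusted p = 0.226). Col22a1 passed the limit of 10, with a mean of 10.0, only through the knockouts, which averaged 17.5, against 2.58 in controls. The limit thus favoured a gene that was higher in knockouts. Col17a1 had 98352, 391932 and 199349 normalised counts in knockouts, against 175246, 228300 and 215482 in controls (log2 -0.06, adjusted p = 0.962). Knockout replicate 2, whose deposited total was the highest of the 6 libraries (157 M, against 54.9 to 66.6 M in the others), was also highest in Col7a1, with 8425, 69357 and 14694 in knockouts and 13221, 14617 and 12303 in controls (log2 0.62, adjusted p = 0.643). The log2 differences were 0.58 for Col2a1 (adjusted p = 0.559), 0.62 for Col4a1 (adjusted p = 0.501), 0.62 for Col1a1 (adjusted p = 0.766) and -0.25 for Col3a1 (adjusted p = 0.928). Without replicate 2 of the knockouts no collagen was called either.

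In sorted heterozygous P95H cells after DMBA/TPA no collagen was called by edgeR or by limma in the fit without a replicate block, at a background of 0% of genes in limma. In limma 8 of 27 collagens had an unadjusted p under 0.05, beside 2376 of 14914 genes, and DESeq2 called 5 collagens, beside 338 of 14914 genes. Col27a1, a fibrillar collagen of cartilage matrix, had 169, 230 and 152 normalised counts in P95H cells, against 37.2, 66.8 and 19.0 in controls (log2 2.28, SE 0.38, adjusted p = 0.1004 in limma). Col11a2 had 43.1, 69.2 and 50.6 in P95H cells and 23.9, 17.6 and 20.7 in controls (log2 1.33, adjusted p = 0.1004). Col23a1, a transmembrane collagen, had 627, 478 and 594 in P95H cells, against 818, 1027 and 902 in controls (log2 -0.70, adjusted p = 0.1004). The groups did not overlap in these 3 genes, nor in 11% of all genes with P95H cells above and 10.5% with P95H cells below, and all 3 were among the 5 that DESeq2 called, with Col4a1 (781, 899 and 620 in P95H cells, against 507, 548 and 391 in controls; log2 0.67, limma adjusted p = 0.138) and Col5a1. The log2 differences were -0.34 for Col17a1 (adjusted p = 0.399), -0.05 for Col7a1 (adjusted p = 0.871) and -0.22 for Col1a1 (adjusted p = 0.804). Without P95H replicate 1, limma called 1 collagen. Col2a1 and Col3a1 were below the limit in this table.

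Collagen pairs, of 1 molecule or of different ones, were compared by r on the log2 scale over 12 knockout-set skins and over 14 P95H-set skins. The libraries of a set share normalisation and, within a group, their mutation. Col1a1 and Col1a2 correlated at 0.99 and 0.98, Col6a1 and Col6a2 at 0.99 and 0.99, Col4a1 and Col4a2 at 0.98 and 0.99, and Col4a5 and Col4a6 at 0.73 and 0.94. Chains of different molecules reached similar values in knockout-set skins. Col3a1 and Col5a2 correlated at 0.99 and 0.73, Col1a1 and Col3a1 at 0.98 and 0.91, and Col11a1 and Col12a1 at 0.95 and 0.10. Col4a3 and Col4a4 correlated at 0.96 and 0.70, and their ratio varied between groups, at 0.907 to 1.11 in knockout skin at 4 days, 0.415 to 0.5996 at 10 days and 0.546 to 0.919 at 12 days, against 0.620 to 0.721 in controls. Col6a5 and Col6a6, neighbours on chromosome 9, did not run in parallel, at -0.11 and 0.36. Outside the collagens, the genes most like Col1a1 over the 12 knockout-set skins were C1qtnf6 (r = 0.98), Klk1b1 and Cpz (0.97 each), Creb3l3 and Olfml2b (0.96 each), of 13609 genes ranked with a mean of at least 100 steps.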

How the data were processed

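RNA sequencing covered 38 libraries: 12 whole skins of the knockout set, 14 of the P95H set and 12 sorted samples. Per the submitters' processing notes STAR, featureCounts and DESeq2 were used, and these notes state no version, role or build. Per the labels, skin was snap frozen and RNA came from Trizol extraction and stranded total RNA kits that differed between the sets; no source used here says if counting used strand. The deposited values are normalised counts, a signal per gene that the authors scaled by library. In all libraries 100% of values were whole multiples of 1 step within a tolerance of 0.001. The whole-skin tables were analysed in steps, because their deposited scale carries a further factor per library; this departs from the design, which named the normalised counts, and the deposited values are an alternative. Sorted tables were analysed as deposited, with edgeR 4.0.16 and DESeq2 1.42.0 on the recovered reads as alternatives. Depth of whole skin is an estimate.

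Each table was fitted once over all its groups with limma 3.58.1 (R 4.3.3, mean-variance trend) on log2(value + 1), for genes with a mean of at least 10, with Benjamini-Hochberg adjustment over 19450, 18311, 17744 and 14914 genes and a threshold of 0.05; fold changes are on this scale and understate those of low genes. Members and gene lists were chosen with earlier results of these data known. Named were up to 8 largest rises and 8 largest falls past the threshold, Col1a1, Col3a1, Col4a1, Col7a1 and Col17a1 against each control, up to 3 genes of each other list, and the 5 genes most like Col1a1. Col22a1 in sorted cells, Col4a5 and the collagens that DESeq2 alone called were chosen after their values were seen. All 44 collagen identifiers were found in GENCODE M21 (GRCm38), 34 with the same version. P-values measure the spread between these libraries. The scripts were tested on simulated data. No column of per-sample values was left unused.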

Additional observations from a re-analysis of the deposited data

Results flagged for a closer look

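With 24 groups of 4 or 5 libraries examined, chance would mark about 1 in 20. Col4a5 in P95H-set controls of 12 days had 1 library, replicate 3, at 935 steps, with the next at 814. Col3a1 in P95H skin of 28 days had 1 library, replicate 2, at 48807 steps, with the next at 41472.

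Col22a1 lay lower in all knockout skins of 10 days than in controls (log2 -0.87) and higher in all sorted knockout cells than in their controls (log2 2.33). Col5a3 had the same opposite signs (log2 -0.58 in skin and 1.58 in sorted cells). The difference between skin and sorted cells was not tested for either gene.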

How the results depend on the processing

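The alternatives were equal totals, deposited values, no filter, a pseudocount of 10, no mean-variance trend, only the groups compared, a replicate block, edgeR and DESeq2 for sorted cells, and leaving out each library. Counts of called collagens moved by over 1.5 times as follows. Without a filter they were 0 for knockout skin at 4 days, 4 at 10 days, 8 for 12 against 10 days, 2 for P95H skin at 12 days and 2 for sorted P95H cells. With only the groups compared they were 5 for knockout skin at 4 days and 3 for P95H skin at 12 days, where no trend gave 3 and deposited values 1. Equal totals gave 15 for knockout skin at 10 days, deposited values 2 for P95H skin at 28 days, and DESeq2 5 for sorted P95H cells. The causes were not tested. Leaving out 1 library gave 3 to 16 collagens for knockout skin at 4 days, 4 to 11 at 10 days, 2 at 12 days, 18 to 22 for 10 against 4 days, 8 to 14 for 12 against 10 days, 2 to 7 for P95H skin at 12 days, 4 to 5 at 28 days, 0 to 1 for sorted P95H cells and 0 for the remaining 3 comparisons. Without 1 of the 2 P95H skins of 12 days, the lone library is assumed to vary like the other groups.

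The replicate block gave 3 for P95H skin at 12 days, 2 for sorted P95H cells and 10 for knockout skin at 10 days, and moved no other count by over 1.5 times. The numbers were not taken to pair the samples, since not every pair in any table had an r over 0.1: r of same-numbered deviations was over 0.1 in 5 of 18 pairs of knockout skin, 4 of 16 of P95H skin and 2 of 3 in each sorted set, and each library correlated best with its own number in 3 of 12, 2 of 14, 6 of 6 and 6 of 6 libraries; in the sorted sets this is a hint from the data, not the design.

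Alternatives were recomputed for the genes the naming rule gave in each comparison; among these, signs reversed for Col1a1, Col3a1, Col4a1, Col7a1 and Col17a1, all uncalled except Col17a1 in P95H skin at 28 days. Of the other collagens, DESeq2 and limma also differed in sign in sorted knockout cells for Col4a5 (0.18 and -0.42), Col16a1 (0.30 and -0.30) and Col20a1 (0.0445 and -0.07), and in sorted P95H cells for Col12a1 (0.0173 and -0.0175). On deposited values log2 was 0.26 for Col17a1, 0.51 for Col4a1 and 0.58 for Col7a1 in P95H skin at 28 days and 0.11 for Col3a1 in knockout skin at 10 days. Equal totals gave -0.29 for Col1a1 and -0.0947 for Col4a1 in knockout skin at 10 days and 0.0493 for Col7a1 in sorted P95H cells. In sorted knockout cells DESeq2, edgeR and the pseudocount of 10 gave 0.90, 0.69 and 0.14 for Col3a1, and DESeq2 and edgeR 0.19 and 0.15 for Col17a1. Leaving out 1 library, Col17a1 ran from -0.38 to 0.0411 in knockout skin at 12 days and -0.55 to 0.45 in sorted knockout cells. Col1a1 ran from -0.40 to 0.33 in knockout skin at 10 days, -0.61 to 1.26 in sorted knockout cells and -0.55 to 0.0740 in sorted P95H cells. Col3a1 ran from -0.48 to 0.0324 in knockout skin at 10 days, -0.11 to 0.22 in P95H skin at 28 days and -1.50 to 0.95 in sorted knockout cells. Col4a1 ran from -0.00316 to 0.34 in knockout skin at 10 days and -0.0868 to 0.37 in P95H skin at 12 days. Col7a1 ran from -0.55 to 0.00373 and -0.45 to 0.0925 in knockout skin at 4 and 12 days, -0.33 to 0.18 and -0.17 to 0.0697 in P95H skin at 12 and 28 days, -0.26 to 1.26 in sorted knockout cells and -0.17 to 0.0324 in sorted P95H cells.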

Other observations

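Collagens below the limit of 10 were also counted. In P95H skin Col6a4 had 13 to 16 steps at 12 days, against 4 to 16 in controls, and 9 to 10 at 28 days, against 6 to 8 in controls. Col9a2 had 3 steps in both P95H skins of 12 days, against 1 to 2 in controls, and these values are close to the 1 step at which a gene without reads is listed.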
